A study of Homo sapiens with 6 samples.

Results

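The regions described here are the clusters of the Total library that the authors' repeat filter assigned to long interspersed nuclear elements (LINEs). All rows of the Total cluster table with the class LINE were taken, which gave 9347 of 200602 clusters (4.66%). They are set beside the 179063 Total clusters for which the repeat filter gave no class, called unclassified here. A cluster is a short genomic interval built by PARalyzer from overlapping uniquely mapped reads that carry T-to-C changes, and a site (PARalyzer group) is any interval of overlapping reads. The study's definition asks for at least 2 conversion locations a cluster, whereas 4862 of the LINE clusters (52.0%) in the deposited table have 1, and all were kept. PAR-CLIP feeds cells 4-thiouridine (4SU), which is read as C in place of T once it has been crosslinked to protein by UV light. All libraries came from HEK293, a human embryonic kidney line, grown with 4SU, irradiated at 365 nm and digested with RNase T1, which cuts RNA after G. G20, G35 and G45 were cut from the gel at about 20, 35 and 45 kDa after a FLAG M2 immunoprecipitation of GFP, a control that is not an RNA-binding protein. HuR replicates 1 and 2 came from immunoprecipitation of HuR (ELAVL1) with the same FLAG M2 antibody. Total was RNA of lysates prepared in the same manner with no immunoprecipitation, treated with proteinase K and depleted of rRNA by RiboZero. The tagged proteins were expressed from a stably integrated, doxycycline-inducible construct and not from the native gene, which limits HuR here as a model of the cell's own protein. Each slice and Total is 1 library. Nothing in the sources states that the 2 HuR libraries came from separate cultures, so their spread may be technical.

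LINEs are retrotransposons that copy themselves through an RNA intermediate. Intact LINE-1 elements encode an RNA-binding protein and an endonuclease with reverse transcriptase, while most genomic copies are truncated and can no longer move. The L2 and L3 families are ancient and inactive, the L1M subfamilies date from the radiation of mammals, and the L1P subfamilies are particular to primates. Many copies lie in introns and so are transcribed as passengers of the host pre-mRNA. The sense strand of LINE-1 is rich in A. HuR is a nuclear and cytoplasmic protein that binds U-rich and AU-rich RNA and is known for stabilizing mRNAs and for binding introns.

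Some LINE clusters carried HuR reads in both replicates and no read in any slice. The 4 shown first rank highest among these by the lower HuR replicate and are at most 30 bases long, and all 4 lie in introns of their host genes. Sequences are those of the deposited table on the transcribed strand, written as DNA from 5′ to 3′ in hg19 (GRCh37), with every T in capitals, since T is where a 4SU conversion can be read.
ANAPC7 intron, L2b, chr12:110840048-110840066, minus strand: acTTcaTcTcaTTacTcTg
EEF1AKMT2 intron, L2a, chr10:126456244-126456264, minus strand: TTTcTacTcTTTTccaaacTg
TSNAX intron, L2, chr1:231673845-231673863, plus strand: acTacTTaaTTcTTTTTcg
TMX1 intron, L2b, chr14:51713005-51713025, plus strand: TTTaccaTaTccTTTcTccTg

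Clusters of exons are shown as well. They were picked by Total reads or by gene list and the intronic ones by HuR reads, so their T content cannot be compared with that above, and over all LINE clusters the median T was 28.6% in introns and 30.4% in coding sequence. They are among the most read LINE clusters in coding sequence, in 3′UTRs and in the lncRNAs JPX, MALAT1 and TUG1.
PDCD6IP coding sequence, L2a, chr3:33905584-33905604, plus strand: caccaacTccTccaacTccag
CPSF6 coding sequence, L4, chr12:69653860-69653886, plus strand: caaTTTcTTTaaTTaaacaaTccaaag
DDX41 coding sequence, L3, chr5:176942714-176942732, minus strand: TaTcccaccacccaTcaag
SAE1 coding sequence, L1MC4a, chr19:47683480-47683501, plus strand: TTaaTaccTTTccTcacTaaag
CANX 3′UTR, L2, chr5:179156487-179156509, plus strand: TcTTcaTcacTTcTTccacTgTg
RPS23 3′UTR, L1MD2, chr5:81569863-81569885, minus strand: TaaTacaaacTTaacTcaaaaTg
JPX exon, L1MA7, chrX:73224287-73224314, plus strand: acaTaacTcaTacaTTTccaTccaaTTg
JPX exon, L1MA7, chrX:73220170-73220191, plus strand: aaTacTaTcTccaacTaTccTg
MALAT1 exon, L1M4c, chr11:65267497-65267515, plus strand: cccaTcaaTTTaaTTTcTg
TUG1 exon, L2c, chr22:31367817-31367838, plus strand: TTcaTacTcTcaTTcTacTTTg

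The site tables held between 6187300 reads (G35) and 38644636 reads (G20), with 35924998 in Total, so 3 reads correspond to between 0.0776 and 0.485 reads per 1000000 reads of the site table (RPM) depending on the library. Shares of clusters with reads depend on that depth and were compared within a library only. Of 5 genes that mark HEK293 cells (PAX2, EYA1, NEFM, INA and LIN28B), 5 had Total sites on their exons, with 4 to 627 reads a gene. Of 5 genes of other cell types, HBB, CD3E and INS had none, PTPRC had 3 reads and ALB had 41. The libraries are of bulk cells, so fewer cells with an RNA and less RNA per cell cannot be told apart.

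The LINE clusters were small. They held 147559 reads, which is 0.411% of the Total library, with a median of 7 reads a cluster (quartiles 6 and 11) against 9 (6 and 16) for unclassified clusters. In sense introns the median was 7 in both classes. Clusters of the repeat classes SINE and DNA also had a median of 7, and those of the class LTR had 8. The median length was 21 bases in both classes, and 96.6% of LINE sequences ended in G, compared to 96.9% of unclassified ones. Repeat names in the deposited tables followed the strand. Among 10633 overlaps between a LINE-named site and a site on the opposite strand, 9 (0.0846%) bore the same name. The strand of each element was not compared here with that of its cluster, and 266 unclassified clusters lay opposite a LINE-named site.

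LINE clusters were found mainly in introns. By GENCODE, 71.2% lay in an intron of a gene on their own strand (95% Wilson interval 70.3 to 72.1), compared to 41.6% of unclassified clusters (41.4 to 41.9). Their share was lower in 3′UTRs, at 8.61% against 23.2%. In coding sequence the shares were 0.289% (27 clusters) and 22.0%. Other repeat classes were also mainly intronic, with 66.1% of SINE, 68.7% of DNA and 51.04% of LTR clusters in introns. Coding sequence held 0.374%, 0.958% and 1.43% of these classes, so neither feature is particular to LINE. Positions antisense to a gene held 5.19% of LINE clusters and 2.46% of unclassified ones, and intergenic positions held 9.44% and 3.79%. Noncoding exons held like shares, 5.01% and 5.02%. LINE clusters made up between 2.80% and 6.18% of all Total clusters on each of the 23 chromosomes with 50 or more of them. The intervals cover counting error only, and reads without molecular identifiers are not independent molecules.

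**Figure D1:**
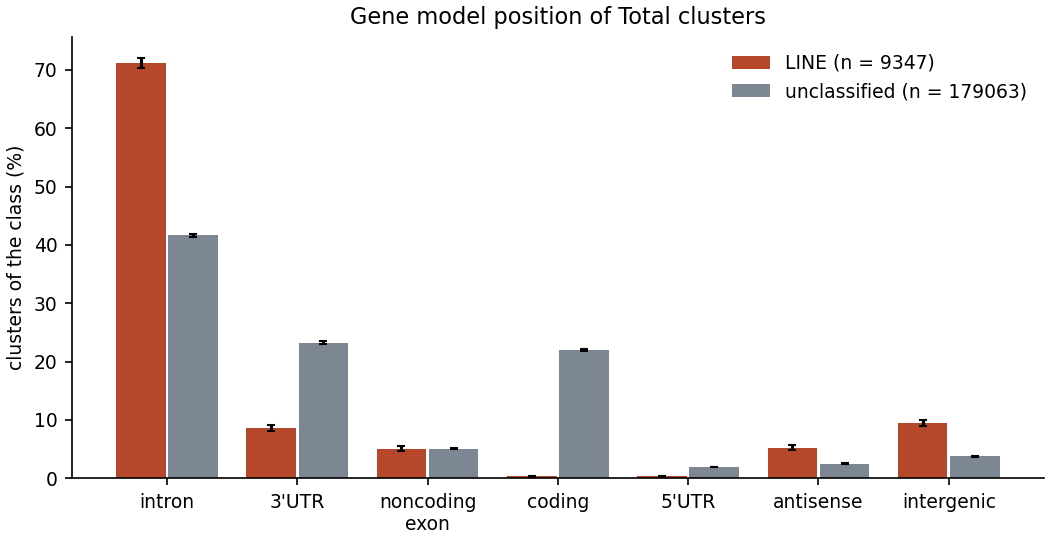
Percent of the 9347 LINE clusters and of the 179063 unclassified clusters of Total in each gene model position. Bars are shares of the class and error bars are 95% Wilson intervals. Introns hold 71.2% of the LINE clusters and 41.6% of the unclassified ones, and coding sequence holds 0.289% and 22.0%.

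These clusters were spread over 3287 genes, of which 1678 held a single LINE cluster and 81 held 10 or more. Their host genes were longer, with a median of 69.9 kb compared to 33.2 kb for genes with unclassified clusters. Protein-coding genes held 78.2% of the LINE clusters and lncRNA genes 6.65%.

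L2 and L1M were the families named most often. A subfamily could be given to 6959 of the LINE clusters from the nearest LINE-named site on the same strand within 100 bp in the slice and HuR tables. L2 accounted for 3452 of these (49.6%) and L1M for 2947 (42.3%). The primate L1P subfamilies accounted for 157, L3 for 148, HAL1 for 125 and L4 and L5 for 100. The most frequent subfamilies were L2a (1365 clusters), L2c (923) and L1M5 (388). The other 2388 clusters had no named site nearby and remain without a family. Naming requires reads near the cluster in another library, so the HuR shares of named families are higher by construction, and the family counts are of named clusters only. The clusters without a name held 41.6% A and 25.2% T, nearer to L1M than to L2.

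LINE clusters were richer in A and poorer in G than unclassified clusters. A made up 36.6% of their bases compared to 31.4%, and it was higher on 23 of 23 chromosomes, by between 2.35 and 10.3 percentage points. G made up 5.95% compared to 9.93% and was lower on 23 of 23 chromosomes. T, the base that 4SU replaces, made up 29.3% and 30.3%. That difference of -0.99 points was smaller than its SD over chromosomes of 1.30 points, and it ran the same way on 18 of 23. In sense introns T made up 29.3% of LINE bases and 31.9% of unclassified bases. The gaps in A and G were smaller there, with 36.8% and 34.4% A and with 5.44% and 6.44% G. Over all positions SINE and DNA clusters were about as rich in A as LINE, at 36.0% and 35.9%, while LTR clusters held 31.8%. G was higher in these classes than in LINE, at 10.3% in SINE, 8.43% in DNA and 8.73% in LTR. Weighting each cluster by its reads turned the order of T, to 27.4% in LINE and 24.02% in unclassified clusters.

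In A, C and T the L2 and L1M families lay further apart than the LINE and unclassified classes, while in G they were 5.66% and 6.15%. L2 clusters held 28.3% A, 33.4% C and 32.7% T, while L1M clusters held 42.0% A, 23.3% C and 28.6% T. The L1P clusters were close to L1M, with 40.4% A and 26.0% T. Most of these sequences occur once in the genome. Of the 7059 LINE clusters of at least 20 bases, the middle 20 bases had a single copy in GRCh37 in 89.2%, compared to 91.7% of unclassified clusters and 68.2% of clusters of the class SINE. That share was 96.0% in L4 and L5, 95.04% in L2, 94.6% in L3, 85.4% in L1M and 71.2% in L1P, and 12.7% of L1P clusters had 10 or more copies. The authors kept uniquely mapping reads, so reads of near-identical young elements are counted in part or not at all.

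**Figure D2:**
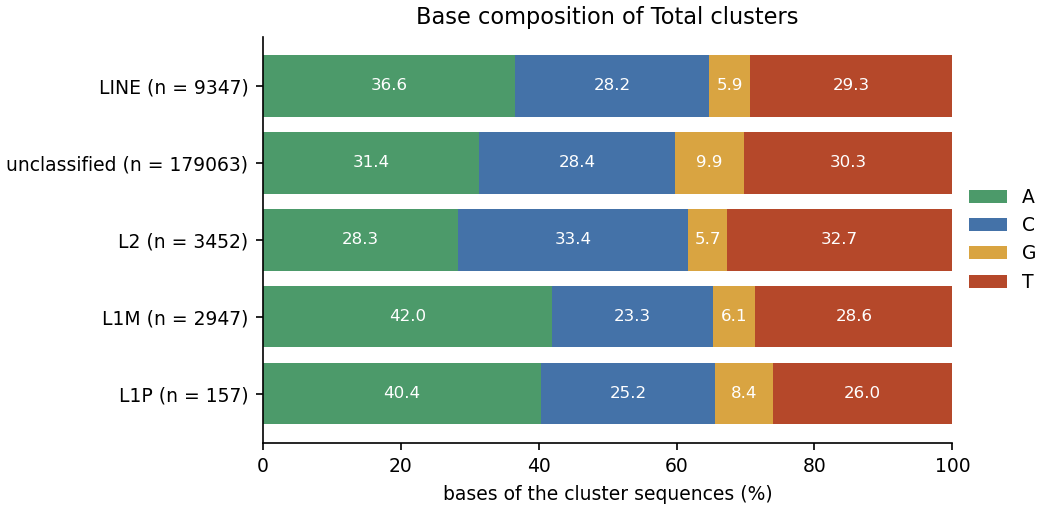
Percent of A, C, G and T over all bases of the cluster sequences, for LINE and unclassified Total clusters and for the LINE families L2, L1M and L1P. L2 clusters hold 28.3% A and 32.7% T, and L1M clusters hold 42.0% A and 28.6% T.

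Conversions in Total were more frequent in LINE than in unclassified clusters as a whole, and not in introns. Summed over clusters, there were 40.1 conversion events per 100 reads in LINE and 23.4 in unclassified clusters. SINE clusters had 38.8, DNA clusters 33.8, LTR clusters 27.9 and all Total clusters together 50.9, so a high value is not particular to LINE. The medians over clusters were 28.6 in LINE and 23.8 in unclassified clusters, and the LINE median was higher on 21 of 23 chromosomes. In sense introns the order of the sums turned, with 33.7 in LINE and 60.3 in unclassified clusters, and the medians were both 28.6. Total is a single library, so these values have no replicate check.

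A small set of LINE clusters carried most of the events. In 432 of them (4.62%), compared to 3.12% of unclassified clusters, there were 95 or more events per 100 reads. These 432 held 20.3% of the reads and 52.8% of the events of the class. In unclassified clusters such clusters held 45.4% of the events, in SINE 53.1%, in LTR 49.6%, in DNA 12.1% and over all Total clusters 90.6%. They made up 5.86% of SINE and 8.48% of LTR clusters. In sense introns they made up 2.75% of LINE and 3.52% of unclassified clusters. A single conversion location accounted for all events in 222 of the 432 (51.4%). Intergenic or antisense positions held 51.4% of them as well. Without such clusters, LINE had 23.8 and unclassified clusters 14.0 events per 100 reads, and in sense introns the values were 28.5 and 28.6.

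Of the 5 most read LINE clusters, 3 were of this kind. The first in rank, chr5:140105756-140105866 on the plus strand, held 21755 Total reads, which is 14.7% of all reads of the class. It overlapped VTRNA1-3 (chr5:140105743-140105831), a small noncoding RNA of the vault family, over 76 of its 111 bases, and its nearest named site was an L1MC3 element. It had 26 conversion locations and 9.34 events per 100 reads. G20, G35, G45, HuR replicate 1 and HuR replicate 2 held 94, 16, 18, 11 and 63 reads there, which is 606 RPM in Total and at most 2.59 RPM in any precipitated library. The next, chr4:80027902-80027918 on the minus strand in an L1PA15 element, held 14848 reads and 14842 events, which is 25.1% of all events in LINE clusters. It had 2 reads in G20 and none in the other libraries. The remaining clusters of the top 5 lay on chromosome 17 (2147 reads), chromosome 14 (2051 reads) and chromosome 3 (1161 reads), with 100, 99.7 and 65.7 events per 100 reads.

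Few LINE clusters had reads in the FLAG-GFP slices. Same-strand sites overlapped 545 LINE clusters (5.83%) in G20, where 17.8% of all Total clusters had reads. The counts were 221 (2.36%) in G35, against 5.19% of all Total clusters, and 236 (2.52%) in G45, against 6.35%. Compared to unclassified clusters, the share differed by -12.7 percentage points in G20 (95% Newcombe interval -13.2 to -12.2), by -2.74 in G35 (-3.05 to -2.40) and by -3.81 in G45 (-4.13 to -3.46). LINE clusters were also found less often with HuR. HuR replicate 1 had reads at 2735 of them (29.3%), where 37.9% of all Total clusters had reads, and HuR replicate 2 at 3702 (39.6%), against 49.4%. The differences from unclassified clusters were -9.30 points (-10.2 to -8.35) and -10.5 points (-11.5 to -9.49). All of the intervals left out 0. Of the other repeat classes, SINE and LTR were also low with HuR. HuR reads were found at 30.9% and 41.6% of SINE clusters and at 31.3% and 36.98% of LTR clusters. Clusters of the class DNA were nearer to all Total clusters, at 36.6% and 48.2%. Slice reads were also scarce in the DNA class, at 7.44% (G20), 2.71% (G35) and 2.68% (G45). In the same order, SINE clusters had 11.3%, 3.82% and 4.65%, while LTR clusters had 11.02%, 4.43% and 4.98%. Each of these shares was below that of all Total clusters, so a low slice share is not particular to LINE. LINE was the lowest of these classes in each slice. The intervals compare clusters within a library, not conditions, and a site that overlaps several clusters counts for each.

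Within introns the gap between the classes was smaller in the slices and larger in HuR. Among clusters in sense introns, reads were found at 3.83% of LINE and 5.62% of unclassified clusters in G20, at 1.43% and 2.28% in G35, and at 1.41% and 2.71% in G45. HuR replicate 1 had reads at 29.9% and 45.1% of these intronic clusters, and HuR replicate 2 at 40.1% and 57.2%. In 3′UTRs the HuR shares of LINE clusters were 35.7% and 46.8%, compared to 49.7% and 62.7% of unclassified clusters. Introns of 2585 genes held clusters of both classes. Weighted to the LINE clusters of each gene, the shares there were 30.2% for LINE and 44.4% for unclassified clusters in HuR replicate 1, and 40.7% and 57.4% in HuR replicate 2. Of these genes, LINE was lower in 1611 and higher in 689 for replicate 1, and lower in 1587 and higher in 757 for replicate 2.

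**Figure D3:**
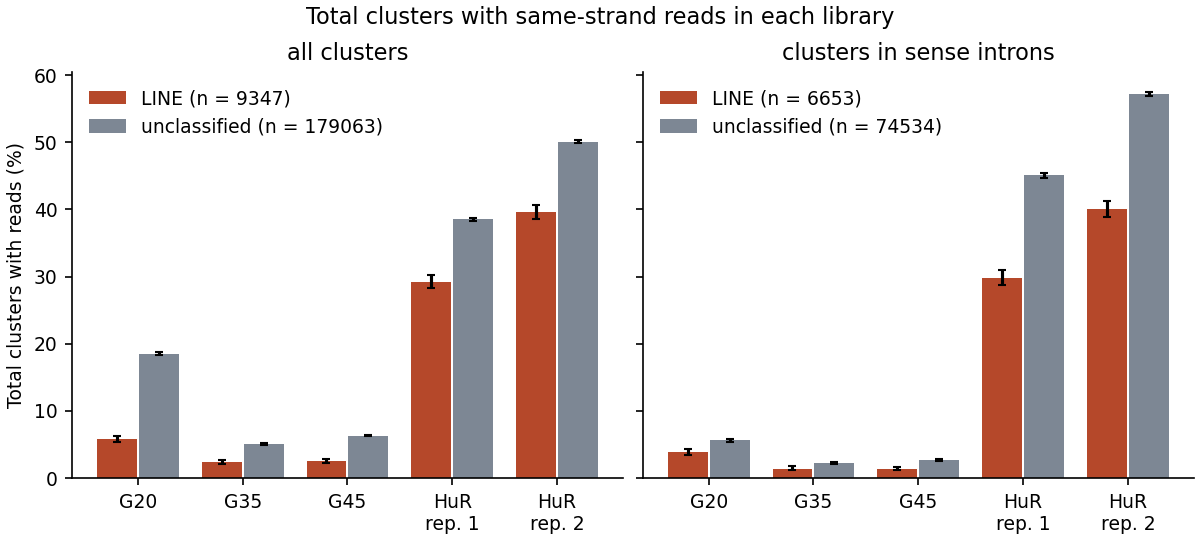
Percent of LINE and of unclassified Total clusters with at least 1 same-strand read in each slice and each HuR replicate, for all clusters (left) and for clusters in sense introns (right). Bars are shares and error bars are 95% Wilson intervals. LINE is lower in each library, and among intronic clusters the HuR shares are 29.9% against 45.1% and 40.1% against 57.2%.

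With all clusters and sites counted, the LINE share as a ratio to the unclassified share was lower in each slice than in HuR. An exact test over 5 libraries cannot reach 0.05 for this difference. The log2 ratio of the LINE to the unclassified share was -0.37 ± 0.04 in HuR (SD, n = 2) and averaged -1.37 over the slices, with a range of -1.67 to -1.11. The difference was 1.00 on the log2 scale (two-sided exact permutation test, p = 0.2, the smallest that 10 splits allow). In sense introns it was 0.17 (exact p = 0.4), and the slices are not replicates of each other. The order of single libraries did not hold there, with G20 at -0.55 and HuR replicate 1 at -0.59. Nor did it hold for sites of 5 or more reads, with HuR replicate 1 at -1.07, G35 at -0.88 and G45 at -0.83 (exact p = 0.6 for HuR against slices).

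Read together, 1819 LINE clusters (19.5%) had reads in both HuR replicates, compared to 28.7% of unclassified clusters. Neither replicate had reads at 4729 LINE clusters (50.6%), compared to 40.03% of unclassified clusters. Reads in any slice were found at 725 LINE clusters (7.76%), compared to 22.2%, and 555 of the 725 had them in exactly 1 slice. Among unclassified clusters, 29308 of the 39766 with slice reads likewise had them in exactly 1 slice. Both HuR replicates and no slice were found at 1492 LINE clusters (16.0%), compared to 21.2% of unclassified clusters. A slice and no HuR replicate were found at 189 (2.02%), compared to 8.39%. None of the 5 libraries had a read at 4540 LINE clusters (48.6%), compared to 31.6% of unclassified clusters. Where reads were present, the median was 8 reads in HuR replicate 2 and 1 read in HuR replicate 1, so single-read sites weigh on the shares of replicate 1. Counting only sites of 5 or more reads, its shares were 3.20% for LINE and 6.73% for unclassified clusters.

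HuR reads went with T in the cluster. Among intronic LINE clusters with under 20% T, HuR replicate 1 had reads at 10.7% and replicate 2 at 16.5%. From 20 to 30% T these shares were 21.8% and 30.4%, and from 30 to 40% T they were 35.4% and 47.6%. At 40% T or more they were 57.7% and 72.0%. Over the same bins the shares were 3.98%, 3.14%, 4.41% and 4.19% in G20. G35 had reads at 1.05%, 1.38%, 1.23% and 2.41%. For G45 the values were 0.733%, 1.18%, 1.18% and 3.25%, so that in both of these slices the share was also highest at 40% T or more.

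At a like T content, LINE clusters still had HuR reads less often than unclassified ones. In the lowest bin the unclassified shares were 24.1% and 30.1% in introns, and in the highest they were 64.5% and 80.9%. With intronic unclassified clusters reweighted to the percent T and the Total reads of the LINE clusters, the differences were -11.4 points in replicate 1 (-12.6 to -10.2) and -12.6 points in replicate 2 (-13.8 to -11.3), an alternative chosen after seeing the data.

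**Figure D4:**
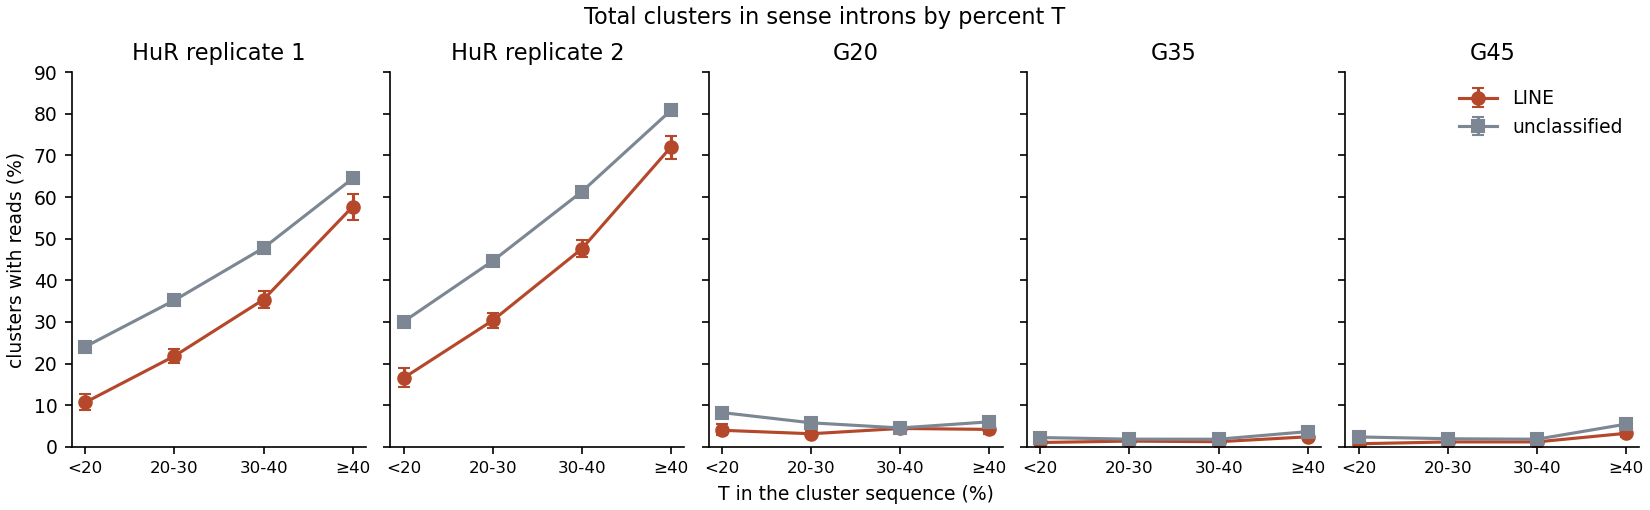
Percent of intronic Total clusters with same-strand reads in HuR replicate 1, HuR replicate 2, G20, G35 and G45, by the percent of T in the cluster sequence, for LINE and unclassified clusters. Points are shares and error bars are 95% Wilson intervals. The LINE shares run from 10.7% to 57.7% in HuR replicate 1 and from 16.5% to 72.0% in HuR replicate 2, below the unclassified shares in every bin. The LINE shares lie between 3.14% and 4.41% in G20, and run from 1.05% to 2.41% in G35 and from 0.733% to 3.25% in G45.

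Of the short motifs searched, the U run TTTTT was found in 3.55% of LINE clusters, compared to 6.02% of unclassified clusters and 5.82% of all clusters of the same lengths. ATTTA, the core of AU-rich elements, was in 7.33% and 7.61%. The poly(A) signal AATAAA was more frequent in LINE clusters, at 4.44% compared to 3.09%, and TGTA, the start of Pumilio sites, was in 0.685% and 0.901%. GGG was in 1.86% and 6.996%. Only the cluster's own strand was searched, and matches of TTTTT and ATTTA can share bases. Of the 332 LINE clusters with TTTTT, HuR replicate 1 had reads at 51.5% and replicate 2 at 78.3%, compared to 28.4% and 38.2% of those without it. The slices were higher with TTTTT as well, at 9.64% against 5.69% in G20, 5.42% against 2.25% in G35 and 9.04% against 2.29% in G45. Of the unclassified clusters with TTTTT, the HuR replicates had reads at 62.9% and 85.5%.

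The families are set side by side for description, since naming used these libraries. HuR replicate 1 had reads at 48.8% of the named L2 clusters and 28.5% of the named L1M clusters, and replicate 2 at 58.1% and 47.4%. At 40% T or more, the L2 shares were 66.8% and 77.3%, and the L1M shares were 46.8% and 74.4%.

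The HuR reads at the introns shown first were few but present in both replicates. ANAPC7, a subunit of the anaphase-promoting complex, had 59 reads in HuR replicate 1 and 89 in replicate 2, with 67 in Total. A second cluster lies beside it on the same intron and shares that HuR site, so its reads are the same ones. EEF1AKMT2, a lysine methyltransferase of translation elongation factor 1 alpha, had 20 and 216 HuR reads and 13 in Total. TSNAX, which encodes the translin partner protein translin-associated factor X, had 20 and 63, with 9 in Total. TMX1, a thioredoxin-related protein of the endoplasmic reticulum, had 16 and 124, with 15 in Total. All 4 were at 0 reads in G20, G35 and G45. In RPM the HuR replicates were 6.19 and 2.77 for ANAPC7, 2.10 and 6.73 for EEF1AKMT2, 2.10 and 1.96 for TSNAX, and 1.68 and 3.86 for TMX1. Replicate 1 was thus the higher for ANAPC7 and TSNAX and the lower for EEF1AKMT2 and TMX1. The HuR reads at these sites carried between 86.4 and 107 events per 100 reads, whereas the Total reads carried between 10.4 and 30.8. The clusters were chosen for their HuR reads, so these levels are a description.

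Reads in the slices were concentrated at a few recurring sites. Reads in all 5 libraries were found at 95 LINE clusters (1.02%), compared to 1.31% of unclassified clusters. These 95 held 99.5% of the G20 reads at LINE clusters, 99.0% of those in G35 and 99.3% of those in G45. They also held 85.7% and 65.5% of those in the HuR replicates. Requiring reads in all 5 libraries favours deeply read sites, and these shares of reads were not computed for unclassified clusters. Of these 95 clusters, 62 (65.3%) had 95 or more events per 100 reads in Total, compared to 4.00% of the other LINE clusters. They lay in intergenic or antisense positions in 66.3%, compared to 14.1%. LINE clusters with 95 or more events per 100 reads had slice reads in 22.7%, 20.8% and 21.3% (G20, G35 and G45). For the other LINE clusters these shares were 5.01%, 1.47% and 1.62%. The HuR shares of the same LINE sets were 33.3% and 38.4% compared to 29.1% and 39.7%. Unclassified clusters with 95 or more events per 100 reads had slice reads in 25.9%, 21.1% and 22.1%, and the other unclassified clusters in 18.3%, 4.59% and 5.83%.

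Single sites weighed heavily on the summed reads. In G20, chr19:55390046-55390074 on the minus strand held 201165 reads, which is 73.4% of the G20 reads at LINE clusters, against 128 reads in Total. LINE sites held 7096 RPM in G20, and 1891 RPM without it. A site in an L3 element of a HHAT intron (hedgehog acyltransferase; chr1:210739240-210739258, plus strand) was at 312 RPM in G20, 2892 in G35, 2923 in G45, 161 in HuR replicate 1 and 737 in HuR replicate 2, against 3.67 in Total. A site at chr7:68669219-68669240 on the plus strand was at 192, 2015, 1721, 301 and 286 RPM in the same order, against 1.28 in Total. Both were higher in each of the 5 precipitated libraries than in Total, and higher in G35 and G45 than in HuR. The clusters at chr5:142988150-142988169 and chr2:9076268-9076285, both on the plus strand, were at 92.1 to 1118 RPM and at 72.2 to 815 RPM over the 5 libraries, against 1.20 and 0.919 in Total. At chr14:32435912-32435930, on the minus strand, the events per 100 reads were 195, 197, 197, 196 and 198 in the 5 libraries and 200 in Total, near 2 conversions a read. The first of these sites was named for its G20 reads. The others were chosen for reads in all 5 libraries and for the level of the lower HuR replicate, so their levels above Total are a description. The part of these sites in the totals of LINE reads is given by the shares above, and their origin was not tested.

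The LINE clusters with slice reads and no HuR read were at a few reads each. The first by summed RPM, chr13:84030866-84030885 on the minus strand, had 3, 4 and 7 reads in G20, G35 and G45 and 69 in Total. An exon of the antisense lncRNA PDC-AS1 had 10 reads in G35 and none in the other slices. An intron of EIF4G3, a translation initiation factor, had 9 reads in G45, and an intron of CEP192, a centrosomal protein, had 1 in G20 and 7 in G35. The last of these, chr2:9854682-9854699, had 7 in G35.

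JPX held the most LINE clusters of any gene. JPX is a lncRNA of the X inactivation centre, and 62 of its 157 Total clusters (39.5%) were LINE, compared to 4.66% of clusters overall. L1M elements accounted for 56 of the 62. Exons and introns held 31 each, with 5 to 165 Total reads (median 14) in exons and 5 to 34 (median 8) in introns. HuR reads were found at 20 LINE clusters (32.3%) in replicate 1 and 33 (53.2%) in replicate 2, compared to 83.1% and 92.8% of its 83 unclassified clusters. The most read LINE cluster of JPX, the first shown for it, had 165 Total reads, 1 and 8 HuR reads and none in the slices. The second had 103 Total reads and none in any of the other libraries.

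The other genes of the top 10 were TAS2R14, ENSG00000234147, LSM14A, FAF1, RFC3, GNGT1, POLA1, RBM41 and ERC1, with 18 to 43 LINE clusters each. Most of these clusters were in introns of long gene models. TAS2R14, a bitter taste receptor gene, has a gene model of 234 kb here, and all 43 of its LINE clusters were intronic. LSM14A, a P-body protein that represses translation, held 24 LINE clusters in a gene of 56.8 kb. FAF1, a ubiquitin-binding adaptor, held 23 and POLA1, the catalytic subunit of DNA polymerase alpha, held 20. RBM41, an RNA-binding protein gene, differed in that 10 of its 18 LINE clusters were in the 3′UTR, and 52.9% of its Total clusters were LINE. T made up a median of 21.7% in these 18, and HuR reads were found at 1 of them in replicate 1 and 4 in replicate 2. In 10 of the 10 genes the HuR share of LINE clusters was below that of unclassified clusters in both replicates, while the G20 share was lower in 6 and higher in 4.

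**Figure D5:**
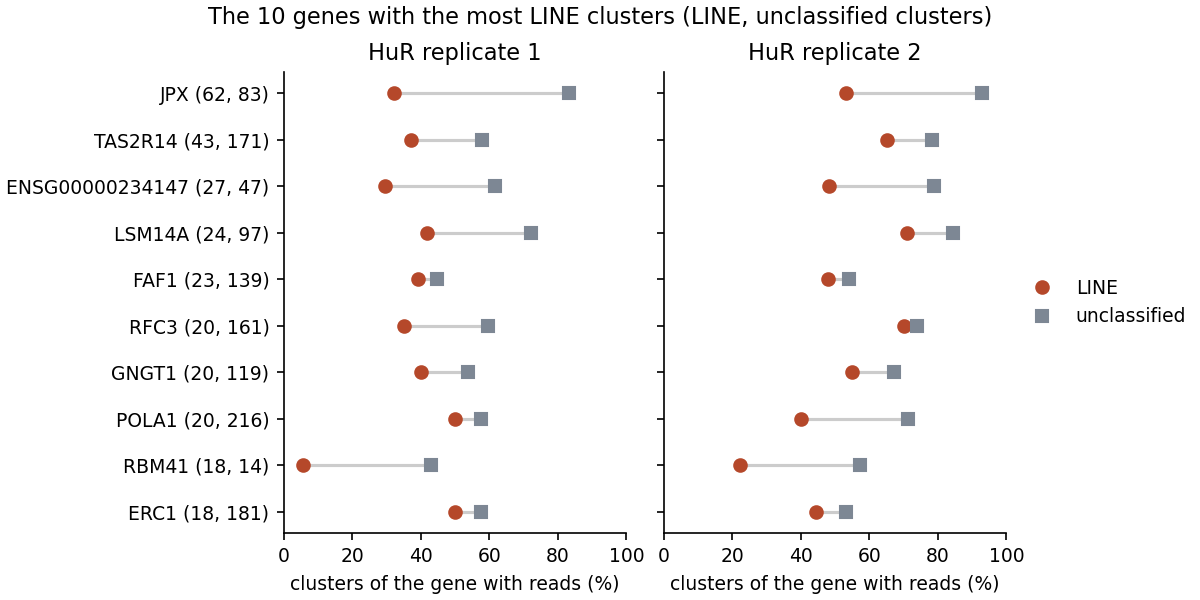
Percent of LINE clusters (circles) and of unclassified clusters (squares) with same-strand reads in HuR replicate 1 and replicate 2, for the 10 genes with the most LINE clusters. The numbers of LINE and unclassified clusters stand beside each gene. LINE is lower in each of the 10 genes, as in JPX with 32.3% against 83.1% and 53.2% against 92.8%.

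Of 8 lncRNAs in a chosen list, 4 held LINE clusters, and 78 of their 563 Total clusters (13.9%) were LINE, compared to 4.66% of all Total clusters. Without JPX it was 16 of 406 (3.94%). JPX accounted for 62 and FTX, its neighbour in the X inactivation centre, for 12, while MALAT1 and TUG1 held 2 each. KCNQ1OT1, NEAT1, OIP5-AS1 and NORAD held none. MALAT1, a nuclear speckle RNA, had a LINE cluster of 142 Total reads with 50 reads in HuR replicate 2 and none elsewhere, and another of 79 with 123 reads in G20, 3 in G45 and 10 and 70 in HuR. TUG1 had a LINE cluster with 50% T that held 72 Total reads, 27 and 184 HuR reads and 2 in G20. Its other LINE cluster had 24 Total reads and 5 and 53 HuR reads.

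A list of 12 genes whose products restrain LINE-1 held 339 Total clusters, of which 7 (2.06%) were LINE, compared to 4.66% of all Total clusters. No Total cluster was assigned to TREX1 of that list. The 7 lay in MOV10, an RNA helicase, in TASOR and PPHLN1, subunits of the HUSH silencing complex, and in SETDB1, a histone methyltransferase. A cluster in the 5′UTR of TASOR had 10 and 81 HuR reads and 9 in Total, and both clusters of MOV10 had no read in the 5 libraries. In 6 genes of RNA-binding proteins, 3 of 309 clusters (0.971%) were LINE, with 2 in introns of MATR3, a nuclear matrix protein, and 1 in an intron of KHDRBS1. ELAVL1, the gene of HuR, held none in 33.

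The 27 LINE clusters in coding sequence were led by PDCD6IP, an adaptor of endosomal sorting, with 127 Total reads. It had 1 read in G20 and none in HuR. CPSF6, a subunit of the mRNA cleavage factor, had 110 Total reads and 15 in HuR replicate 2 alone. DDX41, a helicase, had 41 and GPAT4, a glycerol phosphate acyltransferase, had 38, both with no read in the 5 libraries. SAE1, a subunit of the SUMO-activating enzyme, had 30 Total reads and 6 in HuR replicate 2.

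Among the 805 clusters in 3′UTRs, the L2 element of CANX, which encodes the chaperone calnexin, was the most read. It had 911 Total reads, 9, 6 and 2 in the slices, and 8 and 492 in HuR. The HuR replicates thus stood at 0.840 and 15.3 RPM, which is a spread as large as the level. A second CANX cluster downstream, also in L2, had 262 Total reads and 16 and 117 in HuR. Its 117 reads of replicate 2 appear to come from a site that also overlaps the first cluster and is counted for both. With 10 bp or more shared, the first cluster held 375 reads in replicate 2 in place of 492. RPS23, a ribosomal protein gene, had 443 Total reads and 3 and 16 in HuR, with none in the slices. PAICS, an enzyme of purine synthesis, had 238 Total reads and 5 and 71 in HuR. ZNF146, a zinc finger gene, had 223 Total reads and 2 in HuR replicate 1 alone.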

How the data were processed

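Per the labels and the paper's methods, reads of 50 bp were mapped with Bowtie to hg19 and turned into sites and clusters by PARalyzer. The authors deposited whole-number counts per site of reads, conversion locations and conversion events, not normalized. Removal of duplicates and the version of Bowtie are not given in the sources used here. The Total cluster table and the 6 site tables were used. The cluster tables of the slices and HuR were not used here.

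Starts and ends count from 1 and belong to the site, and the 9347 LINE sequences matched GRCh37 at them. GENCODE release 44, lifted to GRCh37, gave regions and host genes. A cluster had reads in a library when a same-strand site shared at least 1 bp. Shares carry 95% Wilson intervals, and differences between classes within a library carry Newcombe intervals, called where 0 is left out. They cover counting error only. HuR and slices were compared with an exact permutation test over libraries. RPM is reads per 1000000 reads of the site table. The overlap and interval code was tested on simulated data. Scripts ran in Python 3.11.15 with pandas 2.3.3, numpy 2.4.6 and scipy 1.17.1, genome copies were counted with numba 0.67.0 and figures drawn with matplotlib 3.10.9.

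The members, gene lists, motifs and alternatives were chosen with earlier results of these data known. Named were the 10 genes with the most LINE clusters, the 5 clusters with the most Total reads, the 5 by the lower HuR replicate among those in all 5 libraries and among those without slices, the 5 by slices without HuR, the 5 most read in coding sequence and in 3′UTRs, and 3 gene lists. The site on chromosome 19 with the most G20 reads and the most read clusters of JPX were named after their values were seen. Alternatives were the shared bases, strand, sites of 5 or more reads, reweighting by region and Total reads, introns only, clusters of 2 or more locations, other comparison clusters, and leaving out each HuR replicate. Alternatives added after seeing the data were clusters of 1 genome copy, reweighting in introns by reads and by percent T, and leaving out clusters of 95 or more events per 100 reads.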

Additional observations from a re-analysis of the deposited data

How the results depend on the processing

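The lower share of LINE clusters with reads held in each of the 5 libraries under all alternatives, planned and added, with intervals that left out 0. Conversion events per 100 reads, LINE minus unclassified, were 16.7 and depended on the processing: 12.4 without the 10 most read clusters of each class, 4.76 for medians over clusters, 11.3 for clusters of 2 or more locations, 7.56 with reweighting, 9.73 without clusters of 95 or more events per 100 reads, -26.6 in sense introns, and -0.0543 in sense introns without those clusters. Percent T, LINE minus unclassified, was -0.99, with 3.41 when weighted by reads and -2.61 in sense introns. The intron share was 75.4% for LINE and 42.7% for unclassified clusters with genes on either strand, and 37.5% for unclassified clusters of 2 or more locations. The cause of these shifts was not tested. The log2 difference between HuR and slices was 0.97 and 1.03 without either HuR replicate, where a single HuR library allowed no test, and between 0.12 and 1.52 under the other alternatives. No paired analysis was possible because only HuR has more than 1 replicate. Depth limits the shares in the shallower libraries, G35, G45 and HuR replicate 1, and the median site of HuR replicate 1 at a LINE cluster held 1 read.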
